A study of Sus scrofa with 96 samples.

Results

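Amino acids that are not built into protein are broken down along separate routes, each a chain of enzymes that removes nitrogen and passes the carbon skeleton to central metabolism. The enzymes described here are a list of 52 genes on 10 such routes, given by name. A gene was found when its symbol was paired with a counted Ensembl gene identifier, which held for 48 of the 52 genes among 25880 counted identifiers. GCSH, CDO1, PRODH and GPT matched no counted identifier and were not analysed here. In mammals the liver is the classical site for breaking down aromatic amino acids, histidine and methionine. Branched-chain amino acids are an exception, since their nitrogen is removed largely outside the liver, above all in skeletal muscle. Intestine and kidney are known for handling glutamate, proline, ornithine and D-amino acids.

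Pigs (Sus scrofa) ate a semi-purified diet that was either free of xylose (control) or held 8% D-xylose, a pentose sugar. The design names 24 animals, 12 on each diet, and the sampled tissues were the longissimus dorsi (a back muscle), liver, cortex of the kidney and mucosa of the jejunum. The labels give no age, breed or sex and do not link samples of 1 animal, so each tissue sample was taken as independent of the others. Libraries were made with QuantSeq, which sequences the 3′ end of each polyadenylated transcript, so a count does not grow with transcript length but depends on a correct 3′ end in the annotation. Levels are CPM, counts per 1000000 reads, after TMM scaling, given as the median with the lowest and highest library.

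For 90 of the 96 count files the sample title inside the file name differed from the sample under which the file is recorded. Files were assigned by title, since markers of the 4 tissues matched the titles' tissue in 96 of 96 files and the recorded tissue in 48. The 2 assignments give the same diet for 48 files. Totals ran from 13418 to 6942566 counts, and the 6 libraries under 1000000 (5 of jejunum and 1 of liver) were left out. The 90 kept libraries were 9 control and 10 xylose for jejunum, 12 and 12 for kidney, 12 and 11 for liver, and 12 and 12 for muscle, with a median of 3469040 counts. Fewer cells of a type and less RNA per cell cannot be told apart in these tissue samples.

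With TMM scaling, liver held the most of these messenger RNAs. Sums without this scaling are not given here, so the order of liver and kidney is not settled for library totals. The 48 enzymes summed to a median of 8381 CPM in liver (6622 to 11425 over 23 libraries), 5168 CPM in kidney (3135 to 6649, 24 libraries), 3345 CPM in jejunum (1910 to 7395, 19 libraries) and 1851 CPM in muscle (1643 to 3044, 24 libraries). An enzyme was called highest in a tissue when it was at least 2-fold higher there than in each of the other 3, with an adjusted p under 0.05 each time (edgeR quasi-likelihood test over all 12266 tested genes). Of the 45 enzymes tested, 18 were highest in liver, where the background over all tested genes was 7.14%. Kidney was highest for 5 enzymes (background 6.52%), muscle for 2 (background 11.4%) and jejunum for 1 (background 13.5%). Together 26 of the 45 were highest in a single tissue, beside 38.6% of all tested genes. ACMSD, SHMT1 and AMT did not pass the filter on low counts. Some called enzymes passed it largely through the tissue of the call, among them HAL, AMDHD1, GLDC and MAT1A in liver and AGXT in kidney. Those calls were therefore partly set by the filter. The median enzyme was lower in kidney than in liver by a log2 fold change of -0.87, and lower in jejunum than in liver by -3.41, where the medians of all tested genes were 0.12 in both cases. With library totals in place of TMM scaling the median of all genes shifted, reaching 0.99 for kidney over liver and 1.57 for kidney over muscle. Liver then kept 13 of its enzymes, losing HGD, GSTZ1, HAAO, CTH and IVD, while its calls over all genes went from 876 to 572. For enzymes close in kidney and liver the sign depended on this choice: KMO, FAH, AASS, ALDH7A1, AGXT2, AHCY, DBT, GOT1 and MCCC1 were lower in kidney with scaling and had a positive estimate for kidney over liver without it (for KMO a log2 fold change of -0.52 became 0.38, for AASS -0.87 became 0.05). Likewise IVD, MCCC2, BCKDHB and ALDH7A1 were lower in jejunum than in muscle with scaling and higher without it, where the median of all genes for this pair went from 0.13 to 1.29.

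**Figure D1:**
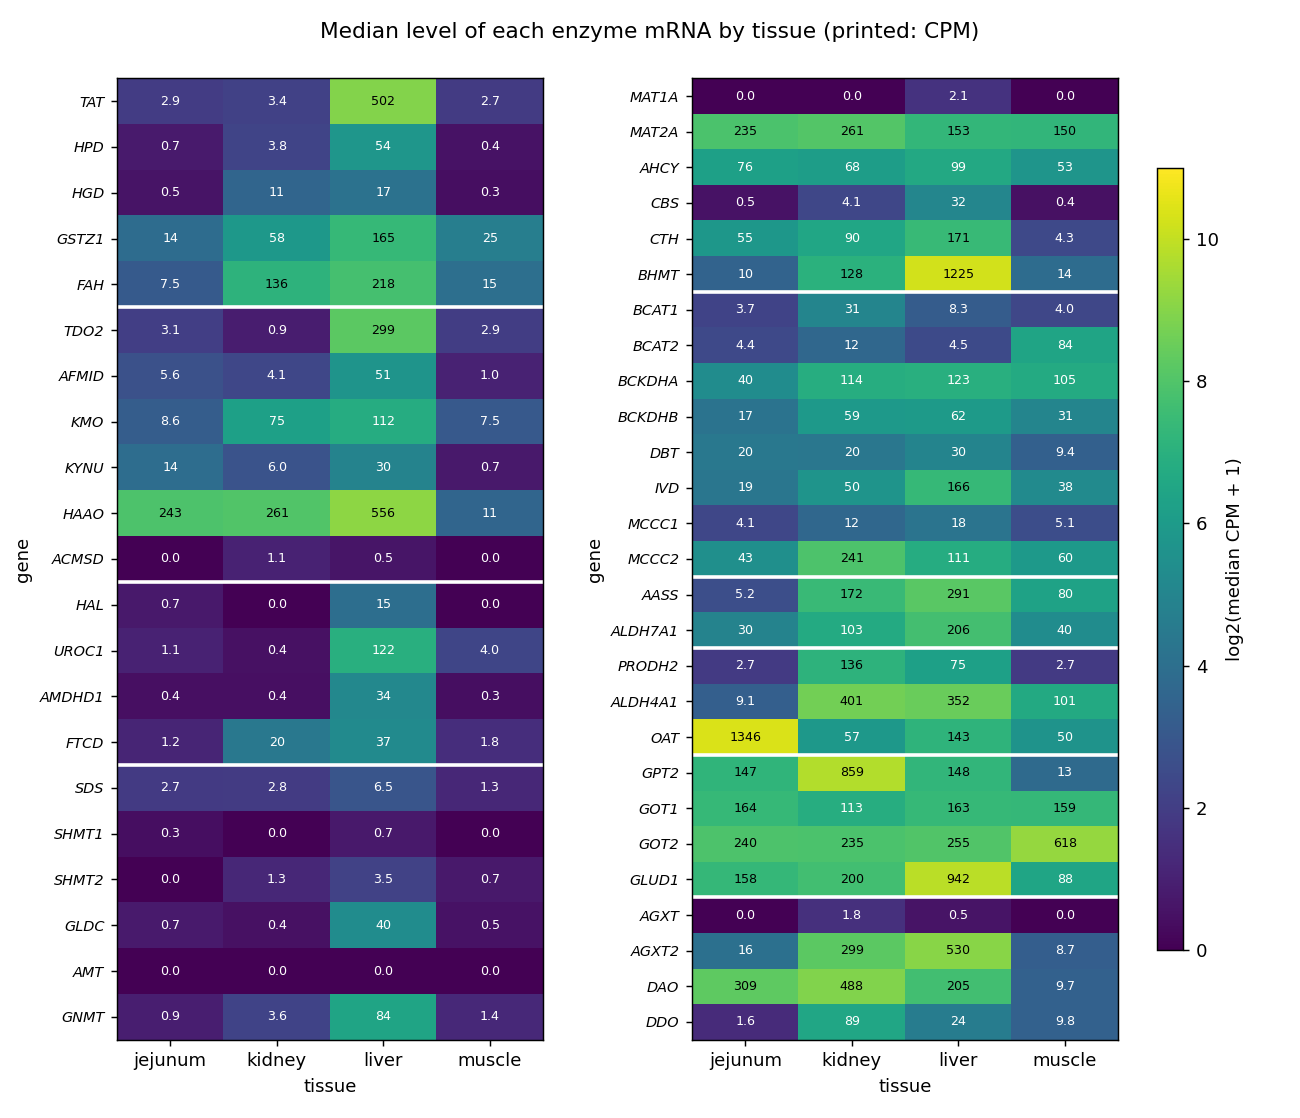
Median CPM of the 48 enzymes (rows, grouped by route with white lines between routes) in the 4 tissues (columns), coloured by log2(median CPM + 1) and with the median printed in each cell. The liver column is the brightest for most tyrosine, tryptophan, histidine and methionine enzymes, while OAT stands out in jejunum, GPT2 in kidney, and BCAT2 and GOT2 in muscle.

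Tyrosine breakdown was a liver route with a second, partial site in kidney. TAT, HPD, HGD and GSTZ1 were highest in liver. TAT (ENSSSCG00000002736), the transaminase that starts the route, stood at 502 CPM in liver (25.5 to 1152). Its medians elsewhere were 2.92 CPM in jejunum, 3.41 CPM in kidney and 2.73 CPM in muscle, and the lowest liver library lay above the highest library of every other tissue, 10.7 CPM in jejunum. The log2 fold change of liver over kidney was 7.06 ± 0.26 (SE; adjusted p = 3.9e-43). The later enzymes were also counted in kidney. HPD, which makes homogentisate, was at 54.1 CPM in liver (38.3 to 131) and 3.78 CPM in kidney (0.652 to 30.2). HGD, which opens the homogentisate ring, was at 16.6 CPM in liver (1.48 to 82.9) and 11.1 CPM in kidney (1.11 to 30.3), ranges that overlap, with a log2 fold change of 1.17 ± 0.29 (SE; adjusted p = 3.1e-04). HGD lost its liver call with limma, in lane 8 alone and with plate position as a replicate block. GSTZ1, the maleylacetoacetate isomerase, was at 165 CPM in liver and 57.8 CPM in kidney. FAH, the last enzyme, was at 218 CPM in liver (87.6 to 408) and 136 CPM in kidney (59.5 to 193), a 1.60-fold difference that passed the test (adjusted p = 3.8e-04) but not the 2-fold rule.

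On the tryptophan-kynurenine route the first enzyme was counted mostly in liver and the later ones more widely. TDO2, the dioxygenase that opens the indole ring, was at 299 CPM in liver (197 to 973) and between 0.866 and 3.10 CPM in the other tissues, 93-fold lower in jejunum, the next tissue (adjusted p = 1.3e-42). AFMID, the next enzyme, was at 50.9 CPM in liver and 5.60 CPM in jejunum. KMO, a hydroxylase on the path to quinolinate, was at 112 CPM in liver (49.0 to 227) and 75.0 CPM in kidney (47.3 to 148), with overlapping ranges. KYNU, the kynureninase, was at 29.6 CPM in liver and 14.2 CPM in jejunum. Neither KMO nor KYNU reached 2-fold over the next tissue. HAAO, which makes the direct precursor of quinolinate, had the highest levels on the route: 556 CPM in liver (441 to 2611), 261 CPM in kidney (112 to 524), 243 CPM in jejunum (152 to 710) and 10.9 CPM in muscle (5.12 to 115). Kidney and jejunum did not differ beyond their spread for HAAO (log2 fold change -0.02 ± 0.22 SE; adjusted p = 0.95). HAAO lost its liver call in lane 8 alone. ACMSD, which diverts the route away from quinolinate, gave 200 reads over all kidney libraries, 58 in liver, 16 in jejunum and 15 in muscle.

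Of the histidine enzymes, HAL, UROC1 and AMDHD1 were highest in liver and FTCD was not. HAL and AMDHD1 had too few reads elsewhere to pass the filter on low counts outside liver, so their calls were partly set by it. HAL, the lyase that starts the route, was at 14.6 CPM in liver (9.39 to 28.9), and the highest library of any other tissue, a muscle library, held 4.99 CPM. UROC1, the urocanate hydratase, was at 122 CPM in liver (86.2 to 215), and its next tissue was muscle at 3.99 CPM (1.43 to 16.8), a 25.9-fold difference (adjusted p = 5.4e-37). AMDHD1, the third enzyme, was at 34.2 CPM in liver (17 to 86.7) and under 0.4 CPM in the median of each other tissue, although a single muscle library reached 55.4 CPM. FTCD, which passes the last carbon to folate, departed from the other enzymes of the route. It was at 37.1 CPM in liver (13.4 to 383) and 20.2 CPM in kidney (9.43 to 431), and liver and kidney were not distinguishable (log2 fold change 0.53 ± 0.36 SE; adjusted p = 0.19).

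Among serine, glycine and one-carbon enzymes, GLDC and GNMT were highest in liver. GNMT, which methylates glycine and so disposes of excess methyl groups, was the most abundant of the group, at 83.9 CPM in liver (34.3 to 238) and 3.57 CPM in kidney (1.0 to 16.7), the next tissue. GLDC, the decarboxylase of the glycine cleavage system, was at 39.7 CPM in liver (12.1 to 123) and under 1 CPM in the median of every other tissue. It passed the filter on low counts largely through its liver libraries. SDS, the serine dehydratase that feeds pyruvate, was low at 6.51 CPM in liver (1.19 to 21.6) and 2.77 CPM in kidney (0.42 to 16). SHMT2, the mitochondrial serine hydroxymethyltransferase, was at 3.47 CPM in liver (0 to 13.0), not distinguishable from 1.33 CPM in kidney (adjusted p = 0.19). Its cytosolic partner SHMT1 gave 71 reads in liver, 22 in kidney, 21 in jejunum and 2 in muscle. AMT, the aminomethyltransferase that works with GLDC, gave 4 reads in jejunum and 0 in the other tissues, which allows up to 0.0384 CPM in liver (3 counts over all liver reads, counting error only).

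Methionine and sulfur enzymes divided into enzymes confined largely to liver and others present everywhere. BHMT (ENSSSCG00000014108), which remethylates homocysteine with betaine, had one of the highest levels of the whole list, 1225 CPM in liver (789 to 2062). Its kidney level was 128 CPM (35.1 to 761), jejunum 10.3 CPM and muscle 14.0 CPM (9.17 to 127). No liver library overlapped another tissue, and liver exceeded kidney 6.09-fold (adjusted p = 6.8e-16). CBS, the first transsulfuration enzyme, was at 32.2 CPM in liver (14.8 to 69.4) and 4.08 CPM in kidney. CTH, the second, spread further, with 171 CPM in liver (25.2 to 547), 90.5 CPM in kidney (8.44 to 294), 55.0 CPM in jejunum (15.7 to 215) and 4.34 CPM in muscle (2.60 to 6.90). Kidney and jejunum were not distinguishable for CTH (adjusted p = 0.64). CTH lost its liver call in control libraries alone and in lane 8 alone. AHCY, which splits S-adenosylhomocysteine, ran from 52.8 CPM in muscle to 98.7 CPM in liver (log2 fold change of liver over muscle 0.85, adjusted p = 4.7e-13). Its spread depended on scaling. Without scaling AHCY exceeded muscle by a log2 fold change of 1.72 in kidney, 1.58 in jejunum and 1.40 in liver.

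Branched-chain amino acid breakdown had no single home. BCAT2 (ENSSSCG00000003139), the mitochondrial transaminase of the first step, was highest in muscle at 83.7 CPM (57.0 to 153). Kidney followed at 11.6 CPM (6.29 to 23.9), then liver at 4.53 CPM (1.0 to 9.54) and jejunum at 4.38 CPM (1.67 to 10.5), and the muscle libraries did not overlap those of any other tissue. The log2 fold change of muscle over kidney was 2.87 ± 0.15 (SE; adjusted p = 2.0e-31). BCAT1, the cytosolic form, was highest in kidney at 31.4 CPM (10.4 to 46.7), with 8.29 CPM in liver (4.74 to 18.8). The dehydrogenase that commits the carbon skeletons was less divided. Its E1 alpha subunit BCKDHA was at 123 CPM in liver (91 to 291), 114 CPM in kidney (56.8 to 305), 105 CPM in muscle (73.9 to 475) and 39.8 CPM in jejunum (19.2 to 50.9). Liver, kidney and muscle were not distinguishable in order for BCKDHA (adjusted p = 0.66 and 0.45). The E1 beta subunit BCKDHB was equally close in liver and kidney, at 62.2 and 59.1 CPM, and 2.02-fold lower in muscle than in kidney. Both closenesses depended on scaling. Without it BCKDHA was higher in kidney than in liver (log2 fold change 0.82, adjusted p = 7.4e-08) and muscle (1.55, adjusted p = 9.7e-19). BCKDHB was then higher in kidney than in liver (log2 fold change 0.78, adjusted p = 2.2e-06). DBT, the E2 core, was at 29.9 CPM in liver and 9.36 CPM in muscle. In the leucine branch IVD, which acts on isovaleryl-CoA, was highest in liver at 166 CPM (111 to 242), ahead of 50.4 CPM in kidney. MCCC2, the beta subunit of methylcrotonyl-CoA carboxylase, was highest in kidney at 241 CPM (42.2 to 501), ahead of 111 CPM in liver (30.9 to 165). MCCC2 lost this call in lane 7 alone. Its partner MCCC1 was at 17.8 CPM in liver and 11.9 CPM in kidney.

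Both lysine enzymes were shared between liver and kidney. AASS, the bifunctional enzyme that starts lysine breakdown, was at 291 CPM in liver (54.9 to 525), 172 CPM in kidney (28.5 to 246), 80.4 CPM in muscle (28.8 to 138) and 5.24 CPM in jejunum (1.55 to 14.8). Each step of that order passed the test, with 1.83-fold between liver and kidney (adjusted p = 5.2e-05) and 13.5-fold between muscle and jejunum (adjusted p = 4.4e-25). ALDH7A1, the aldehyde dehydrogenase further down, followed the same order from 206 CPM in liver to 29.7 CPM in jejunum.

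Ornithine and proline enzymes had different tissue patterns. OAT (ENSSSCG00000010734), the aminotransferase that links ornithine with proline and glutamate, was the highest of all 48 enzymes in any tissue, at 1346 CPM in jejunum. It was also very uneven there, from 195 to 5267 CPM over 19 libraries. Liver held 143 CPM (10.9 to 241), kidney 57.4 CPM (11.7 to 135) and muscle 49.5 CPM (15.8 to 98.4). The lowest jejunum library lay within the liver range, and jejunum exceeded liver 11.2-fold (adjusted p = 1.5e-17). PRODH, the proline dehydrogenase, was not mapped, so the start of proline oxidation was not measured in any tissue. The mapped ALDH4A1 and PRODH2 were in kidney and liver and low in jejunum. ALDH4A1, which yields glutamate, was at 401 CPM in kidney (150 to 771), 352 CPM in liver (121 to 1018), 101.4 CPM in muscle (47.3 to 578) and 9.06 CPM in jejunum (6.88 to 17.6). Kidney and liver were not distinguishable for ALDH4A1 (adjusted p = 0.68), but without scaling kidney was higher (log2 fold change 0.98, adjusted p = 4.6e-07). PRODH2, a hydroxyproline dehydrogenase, was at 136 CPM in kidney (81.3 to 520) and 75.3 CPM in liver (29.0 to 195), and 2.67 to 2.68 CPM in jejunum and muscle. It became kidney-highest with unscaled library totals.

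Kidney led for GPT2, muscle for GOT2 and liver for GLUD1, while no tissue stood out for GOT1. GPT2 (ENSSSCG00000002847), mitochondrial alanine transaminase, was at 859 CPM in kidney (429 to 1945), 148 CPM in liver (28.5 to 395), 147 CPM in jejunum (51.7 to 207) and 13.1 CPM in muscle (10.2 to 33.1). No kidney library overlapped another tissue, and kidney exceeded liver 5.49-fold (adjusted p = 2.0e-21). GOT2, mitochondrial aspartate transaminase, was highest in muscle at 618 CPM (444 to 819), with 255 CPM in liver (184 to 445), a 2.20-fold difference (adjusted p = 3.3e-18) that fell under the 2-fold rule without scaling, where muscle and kidney were not distinguishable (log2 fold change of kidney over muscle 0.12, adjusted p = 0.24). The cytosolic form GOT1 ran from 113 CPM in kidney to 164 CPM in jejunum. Jejunum, liver and muscle were not distinguishable (adjusted p = 0.97 and 0.73), and kidney was lower than muscle (log2 fold change -0.68, adjusted p = 0.0025), which turned to 0.72 without scaling. Unscaled, GOT1 was also higher in jejunum than in liver (log2 fold change 0.63, adjusted p = 0.0070). GLUD1, which releases ammonia from glutamate, was highest in liver at 942 CPM (464 to 1973), ahead of 200 CPM in kidney (58.0 to 366), 158 CPM in jejunum (63.5 to 350) and 88.4 CPM in muscle (42.1 to 143).

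Of the glyoxylate and D-amino acid enzymes, DDO and AGXT were highest in kidney, while DAO and AGXT2 were shared. DAO (ENSSSCG00000009942), the peroxisomal D-amino acid oxidase, was at 488 CPM in kidney (287 to 704), 309 CPM in jejunum (160 to 514), 205 CPM in liver (112 to 379) and 9.73 CPM in muscle (4.12 to 44.9). All steps of that order passed the test, with 1.62-fold between kidney and jejunum (adjusted p = 6.9e-06) and 1.37-fold between jejunum and liver (adjusted p = 0.0024). DDO, the oxidase of D-aspartate, was highest in kidney at 88.9 CPM (38.6 to 156), with 23.9 CPM in liver (8.68 to 54.4). AGXT2, a mitochondrial enzyme acting on glyoxylate and dimethylarginines, was at 530 CPM in liver (364 to 1418), 299 CPM in kidney (149 to 665), 15.6 CPM in jejunum (4.13 to 46.4) and 8.71 CPM in muscle (4.15 to 105). AGXT, the other alanine-glyoxylate transaminase, was called highest in kidney at a very low level, 1.84 CPM (0.786 to 5.22). It had 252 reads there, 58 in liver, 2 in jejunum and 0 in muscle, which allows up to 0.0514 CPM in muscle. With so few reads elsewhere, AGXT passed the filter on low counts largely through its kidney libraries. AGXT was not tested in control libraries alone, xylose libraries alone or lane 7 alone.

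**Figure D2:**
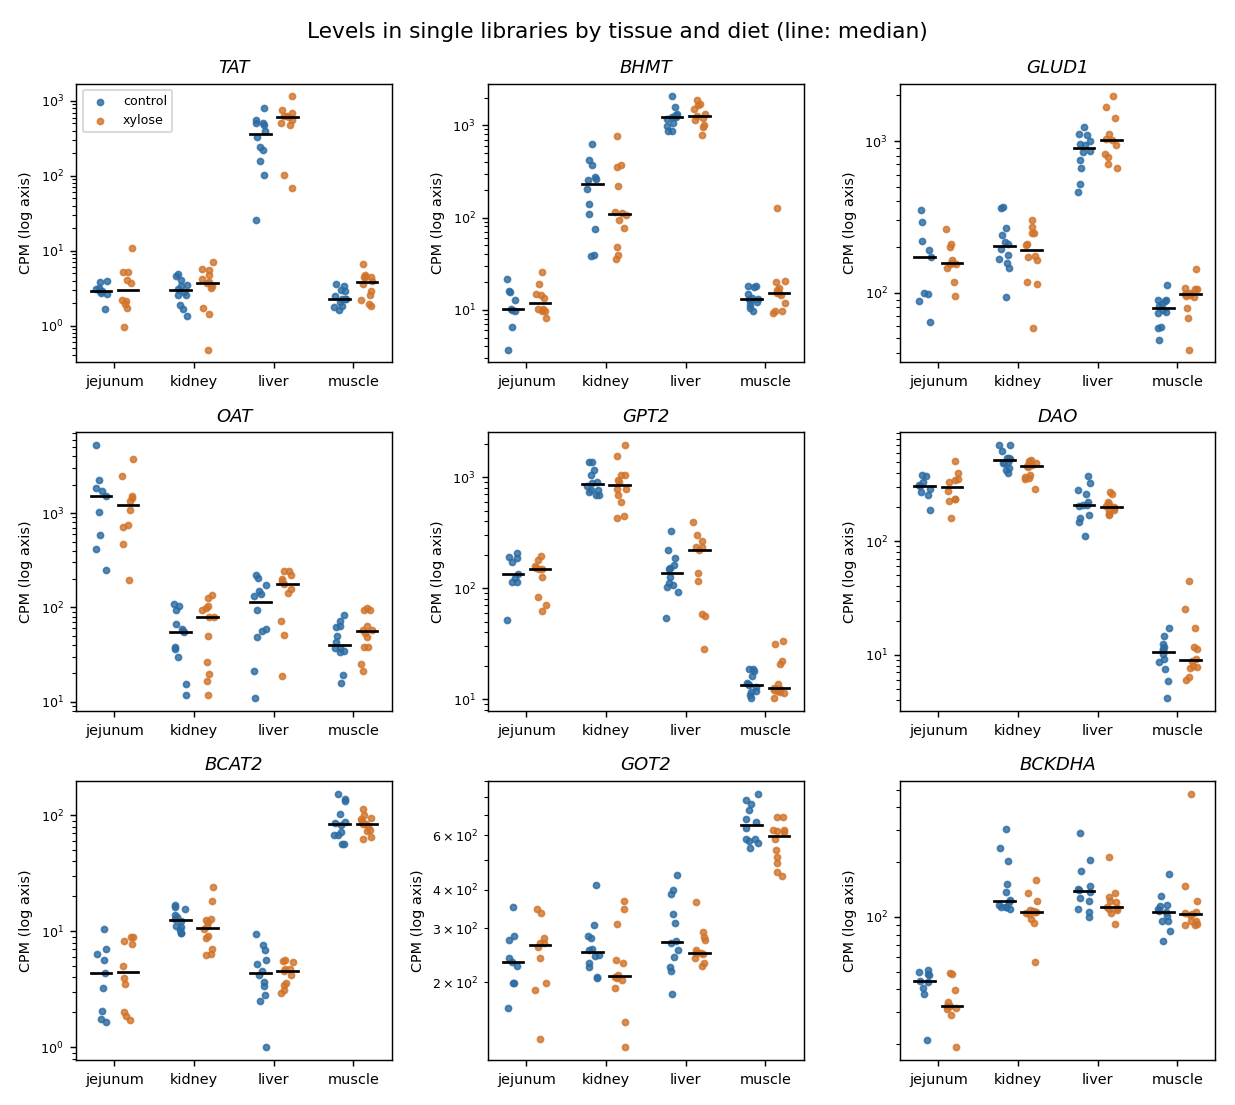
CPM (log axis, a separate scale in each panel) of 9 enzymes in every kept library, by tissue, with control libraries in blue, xylose libraries in orange and black lines at the group medians. TAT, BHMT, GPT2 and BCAT2 separate 1 tissue from the other 3 without overlap, OAT spreads from 195 to 5267 CPM within jejunum, and 1 muscle library reaches 475 CPM for BCKDHA.

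The enzymes called highest in liver were still counted at low levels elsewhere, and so were genes that mark hepatocytes. For 16 of 19 mapped hepatocyte markers that were highest in liver by the same rule, mean levels in muscle were 0.746% to 1.79% of those in liver, and in kidney 0.389% to 2.15%. In jejunum they were 0.595% to 13.2%, the highest being APOC3, an apolipoprotein that intestine also makes. The remaining mapped markers, APOA1, APOB and SERPINA1, did not meet the rule and were left out of this comparison, and their percentages are not given here. All 19 mapped markers had reads in every tissue. Of the 18 liver-highest enzymes, 7 lay at or below the highest of the 16 markers in kidney, 7 in muscle and 14 in jejunum. The jejunum count rested on APOC3: against the next marker there, ITIH1 at 1.85%, it was 8. TAT, for example, was at 0.668% of its liver level in muscle and 0.742% in kidney. CTH in kidney was at 47.4%, HGD at 45.7%, HAAO at 38.1% and GSTZ1 at 34.0%, far above any of the 16 markers. IVD was at 21.1% and GSTZ1 at 15.6% in muscle.

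**Figure D3:**
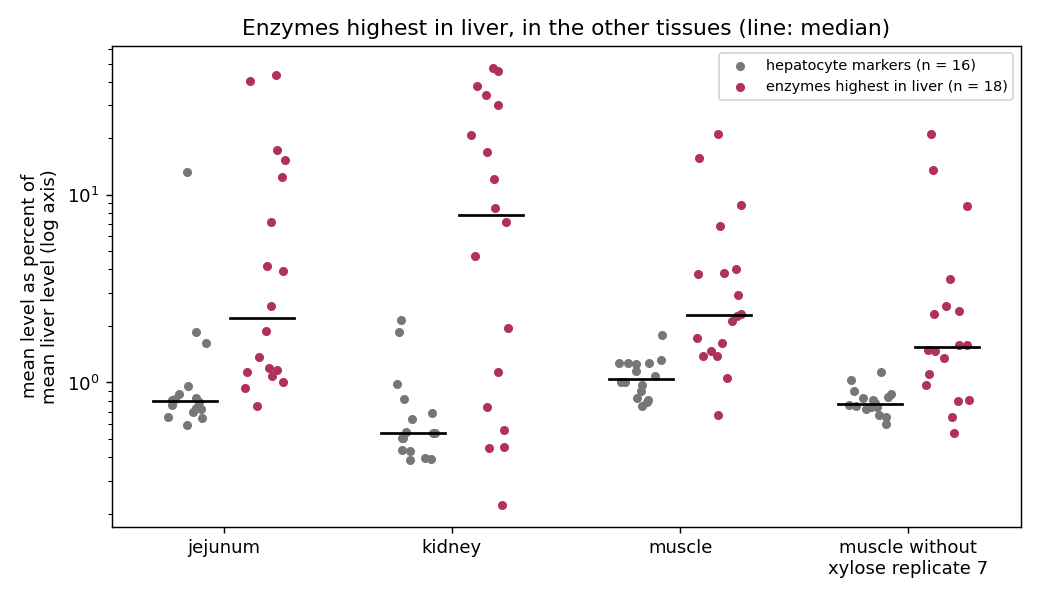
Mean level in jejunum, kidney and muscle as a percent of the mean liver level (log axis) for 18 enzymes highest in liver (red) and 16 hepatocyte markers (grey), with lines at the medians, and for muscle again without xylose replicate 7. The enzymes' median is 7.82% in kidney against 0.537% for the markers, while in muscle it is 2.29% against 1.05%.

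Paired enzymes for the same reaction split by tissue in different ways. BCAT2 made up a median of 96.1% of the summed BCAT1 and BCAT2 level in muscle (88.2% to 98.0%), 50.0% in jejunum (15.4% to 88.4%), 35.6% in liver (9.09% to 53.8%) and 26.5% in kidney (12.0% to 51.7%). Muscle did not overlap liver or kidney, while the highest jejunum library just exceeded the lowest muscle library. GOT1 made up 40.7% of the GOT1 and GOT2 sum in liver, 37.4% in jejunum, 29.7% in kidney and 21.5% in muscle, with wide overlap. Methionine adenosyltransferase was counted almost wholly as MAT2A, the form of most tissues. MAT2A was at 261 CPM in kidney (171 to 392), 235 CPM in jejunum (185 to 386), 153 CPM in liver (97.8 to 311) and 150 CPM in muscle (88.1 to 251). MAT1A (ENSSSCG00000010337), the form that textbooks place in adult liver, was at 2.08 CPM in liver (0 to 7.73) and made up 1.56% of the pair there (0 to 5.35%). Its 232 liver reads compared with 1 read each in jejunum and kidney and 5 in muscle, and it was called highest in liver. With so few reads elsewhere, MAT1A could pass the filter on low counts only through its liver libraries. It was not tested in control libraries alone, xylose libraries alone, lane 7 alone or with all libraries. The annotation of its 3′ end was not examined here. None of the 14 tests of an isoenzyme ratio against diet passed adjustment (permutation test, two-sided, smallest p = 0.050 for SHMT1 against SHMT2 in liver, adjusted p = 0.62).

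**Figure D4:**
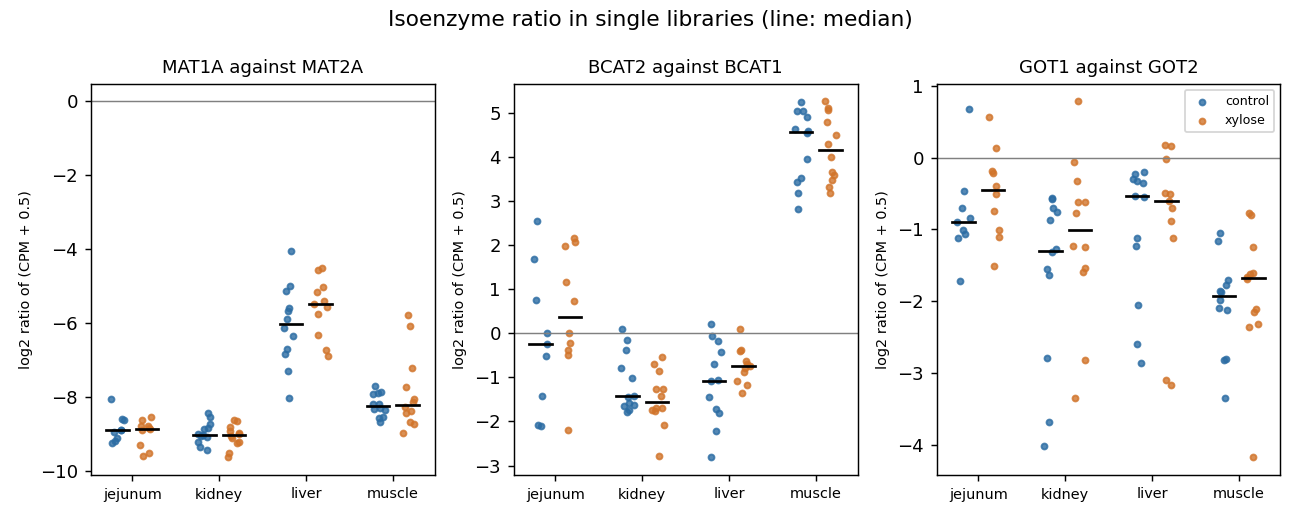
Log2 ratio of (CPM + 0.5) for 3 isoenzyme pairs in every kept library, by tissue and diet (control blue, xylose orange, black line at the median), with a grey line where both are equal. Muscle stands above the other tissues for BCAT2 against BCAT1, and every library lies far below the line for MAT1A against MAT2A.

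Single libraries carried much of the extreme values. Muscle xylose replicate 7 held the highest muscle value for 16 of 35 enzymes with a median of 1 CPM or more, and for 19.8% of 10786 muscle genes. Its hepatocyte markers summed to 0.805% of counts, where the control muscle libraries reached 0.140% at most, and its skeletal muscle markers were the lowest of the muscle libraries at 16.3%. The same library accounts for the muscle maxima of FTCD at 81.5 CPM, HAAO at 115 CPM, and AGXT2 at 105 CPM. Its BCKDHA, at 475 CPM, exceeded every liver library, the highest of which held 291 CPM. Kidney control replicate 7 held the highest kidney value for 12 of 40 enzymes and 13.5% of 11203 genes, and its kidney tubule markers were the highest of all kidney libraries at 2.13%. Liver control replicate 6 held the highest liver value for 9 of 44 enzymes and 15.5% of 10736 genes, and its hepatocyte markers were the lowest of the liver control libraries at 12.0%. Without these 3 libraries and the corresponding jejunum library, the counts of enzymes highest in liver, kidney, muscle and jejunum were 18, 5, 2 and 1. The liver enzymes were not all the same, since MAT1A was no longer tested and SDS was newly called. Among genes at 10 CPM or more in liver, 14 of 39 enzymes had a coefficient of variation above the 90th percentile of all genes, with a median of 40.4% beside 31.1% for all genes. In jejunum 3 of 20 did, with medians of 36.0% and 35.0%.

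Liver levels of 3 pairs of enzymes under hormonal and nutritional control were compared across the 23 libraries. SDS and HAL had Pearson's r = 0.49 and Spearman's rho = 0.39 (permutation p = 0.018 and 0.065; adjusted over 3 pairs 0.055 and 0.19). Within lanes 7 and 8 of the sequencing run, r was 0.52 (n = 11) and 0.47 (n = 12), and without the 2 libraries farthest from the SDS median it was 0.51. TAT with TDO2 had r = 0.27 and rho = 0.20 (permutation p = 0.20 and 0.36; adjusted 0.29 and 0.54), with 0.61 in lane 7 and -0.34 in lane 8. TAT with SDS had r = 0.09 and rho = 0.09 (permutation p = 0.70 and 0.68, adjusted 0.70 and 0.68). None passed adjustment.

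Neighbouring enzymes of the same routes, a list of 79 genes of which 73 were mapped and 65 tested, were highest in liver in 14 cases (background 7.14%), in kidney in 5 (background 6.52%), in muscle in 4 (background 11.4%) and in jejunum in 3 (background 13.5%). The liver examples with the highest levels were HAO1, the glycolate oxidase, at 634 CPM (180 to 1086), TST, the sulfurtransferase rhodanese, at 631 CPM (401 to 1186), and ACAT1, the thiolase that ends isoleucine breakdown, at 599 CPM (88.5 to 1214). Kidney examples were HOGA1 and AUH. HOGA1, which acts further down hydroxyproline breakdown than PRODH2 and not directly after it, was at 120 CPM (17.1 to 176). AUH, which follows the MCCC enzymes in leucine breakdown, was at 31.9 CPM (2.22 to 54.4). In muscle CARNS1, which joins histidine and beta-alanine into carnosine, was at 596 CPM (416 to 1599). BCKDK, the kinase that switches off the branched-chain dehydrogenase, was at 136 CPM in muscle (78.2 to 174), with 39.2 CPM in liver, 33.2 CPM in kidney and 3.56 CPM in jejunum. ASNS, which makes asparagine, was at 34.4 CPM in muscle. ALDH18A1, which starts proline and ornithine synthesis from glutamate, was highest in jejunum at 180 CPM (74.7 to 302), 6.91-fold over kidney (adjusted p = 1.3e-27), the same tissue in which OAT was highest. ETHE1, a sulfur dioxygenase, and PSPH, which completes serine synthesis, followed in jejunum at 40.7 and 22.0 CPM.

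Dietary xylose changed none of these enzymes past the threshold in any tissue. The test was edgeR's quasi-likelihood test within each tissue with lane as a term, adjusted over all genes tested, and the background of calls was 0% of genes for liver, 0% for muscle, 0% for kidney and 0% for jejunum. DESeq2 and limma called none of the enzymes either. Over all genes they called 2 and 3 of 8436 in muscle and none in the other tissues. At an unadjusted p under 0.05 the enzymes counted 0 of 28 in jejunum (background 4.56%), 7 of 37 in kidney (background 7.11%), 0 of 43 in liver (background 6.72%) and 2 of 28 in muscle (background 7.35%). The median log2 fold change of the enzymes was 0.25 in muscle, 0.16 in liver, 0.08 in jejunum and -0.11 in kidney, beside 0.03, 0.01, 0.00 and 0.03 for all genes. Without xylose replicate 7 the muscle median was 0.14, and without the kidney library richest in other tissues' markers the kidney median turned to 0.04. All 28 enzymes in jejunum and all 43 in liver lay within 1 log2 unit of no change.

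All 7 kidney enzymes at an unadjusted p under 0.05 (HPD, FTCD, BCKDHA, DAO, PRODH2, ALDH4A1 and SDS) had lower estimates with xylose. FTCD in kidney was at 22.6 CPM on control (9.43 to 431) and 18.4 CPM on xylose (10.2 to 67.6), a log2 fold change of -1.59 ± 0.58 (SE; adjusted p = 0.65), with 431 CPM coming from control replicate 7. HPD was at 4.91 CPM on control (1.17 to 30.2) and 2.83 CPM on xylose (0.652 to 6.34), a log2 fold change of -1.23 ± 0.42 (SE; adjusted p = 0.65). BCKDHA was at 122 CPM on control (111 to 305) and 107 CPM on xylose (56.8 to 159), a log2 fold change of -0.50 ± 0.18 (SE; adjusted p = 0.65). Without control replicate 7, an exclusion chosen after the values were seen, BCKDHA alone of the 7 stayed under an unadjusted 0.05. The log2 fold changes were then -0.46 for FTCD, -0.65 for HPD and -0.34 for BCKDHA, each with an adjusted p of 0.997.

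The 2 muscle enzymes at an unadjusted p under 0.05, AGXT2 and HAAO, also moved toward no change without 1 library. AGXT2 was at 8.19 CPM on control (4.15 to 12.2) and 9.41 CPM on xylose (5.0 to 105), a log2 fold change of 1.04 ± 0.45 (SE; adjusted p = 0.62). HAAO was at 9.89 CPM on control (5.12 to 15.3) and 12.7 CPM on xylose (5.38 to 115), a log2 fold change of 0.94 ± 0.41 (SE; adjusted p = 0.62). Without xylose replicate 7, the library with 0.805% hepatocyte markers, the log2 fold changes were 0.20 and 0.24. GLUD1 was at 78.6 CPM on control (49.0 to 112) and 97.4 CPM on xylose (42.1 to 143), a log2 fold change of 0.30 ± 0.15 (SE; adjusted p = 0.69), and 0.26 without that library.

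In liver the smallest p-values belonged to CTH, MAT2A and GLDC. CTH was at 134 CPM on control (25.2 to 240) and 173 CPM on xylose (95.4 to 547), a log2 fold change of 0.68 ± 0.35 (SE; adjusted p = 0.72). MAT2A was at 174 CPM on control (111 to 311) and 142 CPM on xylose (97.8 to 214), a log2 fold change of -0.31 ± 0.16 (SE; adjusted p = 0.72). GLDC was at 38.0 CPM on control (12.1 to 51.4) and 40.6 CPM on xylose (24.3 to 123), a log2 fold change of 0.49 ± 0.26 (SE; adjusted p = 0.72). The groups overlapped for all 3. TAT, with its wide liver range, was at 366 CPM on control (25.5 to 794) and 606 CPM on xylose (69.8 to 1152).

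In jejunum, where 9 control and 10 xylose libraries remained, BCKDHA was at 44.2 CPM on control (21.0 to 50.9) and 32.5 CPM on xylose (19.2 to 49.3), a log2 fold change of -0.29 ± 0.17 (SE; adjusted p = 0.95). ALDH4A1 was at 7.84 CPM on control (7.07 to 14.4) and 10.7 CPM on xylose (6.88 to 17.6), a log2 fold change of 0.34 ± 0.22 (SE; adjusted p = 0.95). KMO was at 5.89 CPM on control (4.00 to 14.3) and 9.73 CPM on xylose (5.42 to 16.7), a log2 fold change of 0.36 ± 0.25 (SE; adjusted p = 0.95). The wide spread of OAT in jejunum was present on both diets, with 248 to 5267 CPM on control and 195 to 3779 CPM on xylose.

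**Figure D5:**
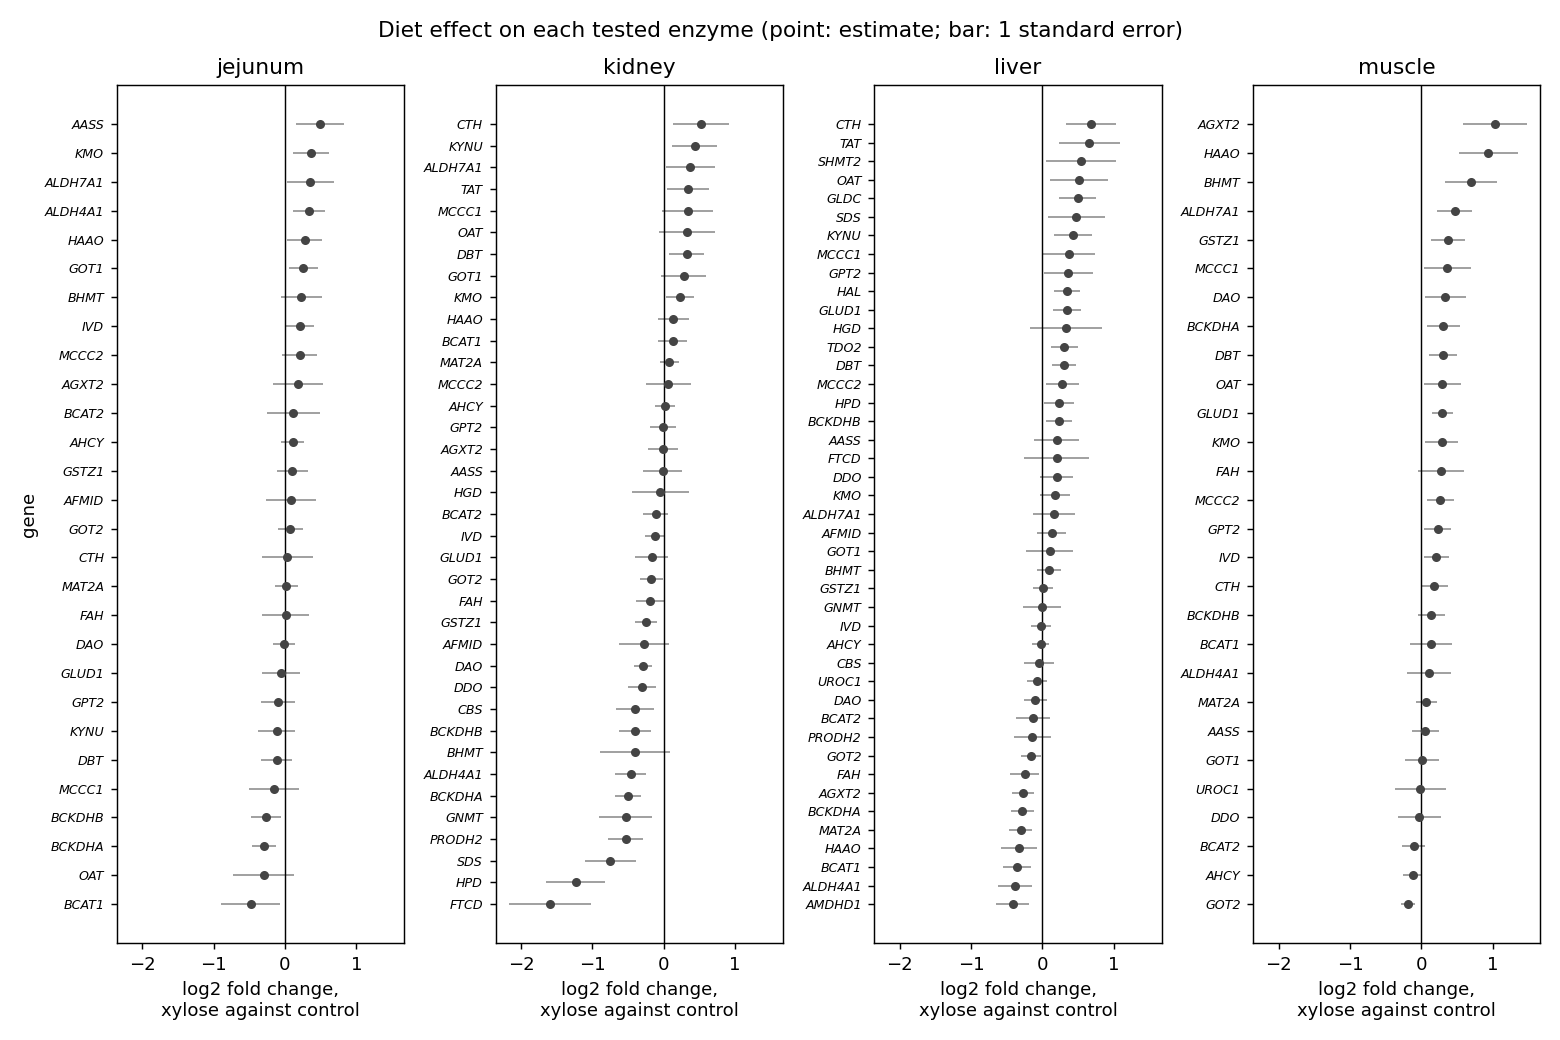
Log2 fold change of xylose against control (x axis; bars are 1 standard error) for each tested enzyme in each tissue, sorted within the tissue. Most estimates lie within 0.5 of no change, and the extremes, FTCD and HPD in kidney and AGXT2 and HAAO in muscle, moved toward no change without 1 library.

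A difference in the diet effect between tissues was tested directly with the 3 interaction terms in 1 model over all 90 libraries. None of the 45 enzymes passed, beside a background of 0.00815% (1 of 12266 genes). At an unadjusted p under 0.05 the enzymes counted 9 (background 4.90%), led by AMDHD1 (p = 1.9e-04, adjusted p = 0.21), whose muscle level was 55.4 CPM in 1 library. Without muscle xylose replicate 7, the muscle library richest in hepatocyte markers, mean AMDHD1 in muscle fell from 6.78% to 0.796% of its liver level. Without the 4 libraries that held the most enzyme maxima in their tissues, 2 of 44 enzymes were under 0.05 (background 4.39%), and no gene passed adjustment. HPD was also among the 9 before, while BCAT1 was not (p = 0.24 in the model over all 90 libraries).

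The record's assignment gave different diet calls. In libraries with jejunum transcripts, taking the recorded diet called 3 of the enzymes, beside a background of 9.80% of genes. DAO and GOT1 were higher with xylose, with log2 fold changes of 0.54 ± 0.16 and 0.65 ± 0.21 (SE; adjusted p = 0.032 and 0.048), and AFMID was lower at -1.34 ± 0.34 (SE; adjusted p = 0.016). In libraries with muscle transcripts it called 0 enzymes beside a background of 3.33%. By the record all 48 control libraries were in lane 7 and all 48 xylose libraries in lane 8, so recorded diet and lane cannot be told apart.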

How the data were processed

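The authors deposited 1 file of raw read counts per gene for each of 96 QuantSeq libraries. Per the submitters' processing notes, the tools included STAR and featureCounts. Neither build, annotation nor strand setting is given in the sources used here, so no coordinates are printed, and counts of overlapping or paralogous genes (among them SHMT, GOT, BCAT, MAT and AGXT pairs) are uncertain. Symbols were paired with 14857 of 25880 identifiers. Fits used edgeR 4.0.16 in R 4.3.3 (glmQLFit, TMM, filterByExpr, lane as a term) with Benjamini-Hochberg adjustment over all genes tested, and were tested on simulated data. Adjusted p-values come from it unless another tool is named. DESeq2 1.42.0 and limma 3.58.1 were alternatives. CPM used the TMM-scaled library sizes. Isoenzyme ratios used a pseudocount of 0.5 and permutation tests with 100000 resamples. No libraries were identical. The enzymes and lists were chosen with earlier results of these data known. Values were printed for the most abundant enzyme of each route, enzymes highest in another tissue, isoenzyme pairs, the 3 smallest diet p-values per tissue and up to 3 neighbouring genes per tissue; others were chosen after their values were seen. A neighbouring gene that this rule names is not reported here. Floors for 0 counts allow 3 reads. Alternatives were other scalings, filters, tests, lanes, diets, depth and assignments, and leaving out single libraries.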

Additional observations from a re-analysis of the deposited data

Results flagged for a closer look

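In the 2 jejunum groups, the groups small enough for an outlier test on single libraries, 5 of 56 combinations of enzyme and diet had a library set apart from the rest, and in each case it was the lowest. That is 8.93%, beside 8.03% of the same combinations for all 8786 genes at or above the lowest median of these enzymes, and chance gives about 1 in 20. For all these genes too, the library set apart was mostly the lowest, in 1069 of 1411 cases. Control replicate 2 was lowest for 3 of them: GPT2 at 51.7 CPM where the other control libraries held 113 to 207 CPM, MCCC1 at 0.667 CPM beside 3.13 to 6.92 CPM, and BCKDHA at 21.0 CPM beside 37.9 to 50.9 CPM. AASS was at 1.55 CPM in control replicate 4 beside 3.90 to 6.29 CPM. GSTZ1 was at 5.32 CPM in xylose replicate 12 beside 9.34 to 16.7 CPM.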

How the results depend on the processing

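With plate position as a replicate block, 17 enzymes were highest in liver (HGD was lost), and the counts of 5 (kidney), 2 (muscle), 1 (jejunum) and 0 (differing diet effects) stood as before; at an unadjusted p under 0.05, differing diet effects fell from 9 to 3 enzymes, and the call of GJB1 was lost. The labels do not say that a position marks an animal. Same-position libraries had median correlations of 0.083 to 0.22 beside -0.0052 to 0.046 for other positions, higher in all 6 tissue pairs, some pairs of libraries being negative, and matched best in 2 to 6 cases per pair. No paired fit was possible within a tissue because each position holds 1 library of it. Muscle counted 1 enzyme without scaling and 1 at 4-fold, where its calls over all genes went from 1402 to 644 and 718. Kidney counted 1 at 4-fold, where its calls over all genes went from 800 to 386. With no filter jejunum counted 2, where its calls over all genes went from 1655 to 3559. By the recorded tissues, jejunum counted 18 (876 over all genes) and liver 1 (1655 over all genes). By the recorded diets, 3 of 28 enzymes were called in jejunum, beside 887 of 9049 genes. Differing diet effects were called for 4 of 46 enzymes, beside 1044 of 12384 genes, a similar share. Of the isoenzyme ratios 2 passed, the smallest adjusted p being 0.034 (permutation test). Log2 fold changes that turned by the recorded diets were 0.28 (BCKDHA) and -0.17 (ALDH4A1) in jejunum, 0.83 (HPD) and 0.33 (FTCD) in kidney, -0.35 (CTH) and -0.32 (GLDC) in liver and -0.092 (GLUD1) in muscle. KMO in jejunum was -0.057 and GLDC in liver -0.027 in lane 8 alone, and BCKDHA in jejunum 0.039 with all libraries. TAT with SDS was r = -0.033 without 2 libraries, and TAT with TDO2 0.61 in lane 7 and -0.34 in lane 8. The causes were not tested. Low counts limit MAT1A, AGXT, SHMT1, AMT and ACMSD.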

Other observations

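Among the 5 jejunum libraries left out for depth, OAT ranged from 169 to 4134 CPM of all counts, as widely as in the kept libraries. The 4134 CPM were in control replicate 12, with 673261 counts. The liver library with 13418 counts, xylose replicate 3, held 77 reads over 25 of the 48 enzymes. The gene whose diet effect differed between tissues past adjustment was GJB1, a gap junction gene outside the list (adjusted p = 0.016), named here after its value was seen. With plate position as a block, or without the 4 libraries holding the most enzyme maxima, 0 genes passed (edgeR), with 390 and 535 genes at an unadjusted p under 0.05. AOC1, the diamine oxidase that shares the abbreviation DAO in older usage, was counted apart from DAO, at 640 CPM in jejunum, 489 CPM in kidney, 6.74 CPM in liver and 10.2 CPM in muscle.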
